A study of Mus musculus with 10 samples.

Results

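The genes described here encode the BCL2 family, the proteins that decide whether the outer mitochondrial membrane stays intact. Of the 10 genes considered, Bcl2, Bcl2l1 (BCL-XL), Mcl1 and Bcl2a1a (A1) promote survival, Bax and Bak1 form the pores, and Bcl2l11 (BIM), Bbc3 (PUMA), Pmaip1 (NOXA) and Bid are BH3-only proteins that promote death. The members were all non-control probes whose gene name in the scanner files is one of these 10. There were 17 such probes for 9 genes, of 41174 non-control probes in all, and Bcl2a1a had none under its own name.

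Pro-survival proteins bind and hold the pore formers and the BH3-only proteins, and BH3-only proteins released or made under stress free or activate BAX and BAK. The pores let cytochrome c out of mitochondria, which activates caspase-9 through APAF1. In lymphoid cells BCL2, MCL1 and A1 support survival, BIM mediates much of the death of lymphocytes that lack cytokine or antigen-receptor support, and PUMA and NOXA are transcriptional targets of p53. The family is also controlled after transcription, so mRNA levels alone do not give the balance of the proteins.

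Messenger RNA was measured in spontaneous lymphomas from 5 mice heterozygous for a C/EBPβ allele that gives LIP, the short isoform of this transcription factor (+/L), and from 5 wild-type mice (+/+), with 1 tumour and 1 single-colour Agilent array per mouse. By the labels, +/L mice were 21 (mouse 20), 20 (mouse 23), 20 (mouse 517), 18 (mouse 688) and 11 months old (mouse 866), with 1 male and 4 females. The +/+ mice were 29 (mouse 11), 20 (mouse 17), 23 (mouse 19), 26 (mouse 40) and 26.5 months old (mouse 101), with 2 males and 3 females. The mice themselves are heterozygous, so cells around the tumour carry the allele too, no strain was found in the labels, and the RNA came from whole tumour pieces.

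Every value below is the log2 of a probe's processed signal relative to the 75th percentile of its own array. The number of arrays limits the precision. Between 48.0% and 66.7% of spots per array were well above background, and 0 were saturated. The 75th percentile itself lay between 309 and 651 in +/L and between 199 and 340 in +/+ arrays. Cd79a, a B-cell receptor component, and Cd3e, a T-cell receptor component, were well above background on all 10 arrays. The arrays of +/L mouse 20 and +/+ mouse 11 carry a male label but had Xist and 0 of 3 Y-linked genes well above background. The array of +/L mouse 20 also stood apart in the signal along transcripts. Over 2506 transcript records with probes at least 1000 bases apart, the probe nearer the 5′ end minus the one nearer the 3′ end, centred on each record's mean over tumours, had a median of 0.60 in +/L mouse 20 and between -0.20 and 0.05 in the other 9 tumours. Differences of the member probes are therefore also given without this library. In whole tumours, fewer cells of a type and less RNA per cell cannot be told apart.

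Probes of the genes the results turn on are shown first, where they lie away from the 3′ end of the transcript, with coordinates in mm9 as the files give them and the sequence in transcript direction. Each is the full 60-base target of the array, in lower case because no part of it stands out. The Bcl2 probe (A_51_P380013, chr1:108608970-108609029, minus strand) and a Bcl2l11 probe nearer the 5′ end than the brightest of that gene (A_51_P484880, chr2:127972893-127983988, plus strand) belong to the 2 genes with a probe at an unadjusted p under 0.05. The probes that had that p, A_52_P534870 of Bcl2 and A_52_P158527 of Bcl2l11, lie nearer the 3′ end and their sequences are not printed here. The Bax probe (A_51_P254541, chr7:52721469-52721624, minus strand) and the Bak1 probe nearer the 5′ end (A_52_P225207, chr17:27158232-27158291, minus strand) measure the pore formers, and the A1 probe (A_51_P494241, chr9:89094570-89102431, plus strand) stands for the Bcl2a1 genes. The 60 bases of the Bax probe spread over 156 bases of the genome, those of the Bcl2l11 probe over 11096 and those of the A1 probe over 7862, so by these coordinates the 3 probes cross an intron.
Bcl2: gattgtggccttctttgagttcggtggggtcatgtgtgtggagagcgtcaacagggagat
Bcl2l11: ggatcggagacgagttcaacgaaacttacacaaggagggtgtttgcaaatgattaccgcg
Bax: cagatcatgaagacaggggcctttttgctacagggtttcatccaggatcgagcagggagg
Bak1: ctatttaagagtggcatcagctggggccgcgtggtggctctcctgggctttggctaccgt
A1: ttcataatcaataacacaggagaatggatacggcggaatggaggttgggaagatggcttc

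Each of the 17 probes met the filter on dim probes (signal well above background on 3 or more of 10 arrays) and was tested together with the 26410 probes that met it. With limma and Benjamini-Hochberg adjustment over all of these, 0 of 17 probes passed an adjusted p of 0.05, and the lowest adjusted p was 0.594. Over all kept probes 0.0% passed. At an unadjusted limma p under 0.05 there were 2 of 17 member probes (11.8%), 1 of Bcl2 and 1 of Bcl2l11, beside 7.96% of all kept probes. The Bcl2 probe was among the 3.29% of kept probes higher in +/L tumours at that p and the Bcl2l11 probe among the 4.67% that were lower. A single member probe (Bcl2l11) had groups that did not overlap, beside 1.79% of all kept probes. Of the 17 differences (+/L minus +/+), 7 were above 0 and 10 below, with a median of -0.06, against a median of 0.01 over all kept probes. With the brightest probe per gene, 2 of 9 genes were higher and 7 lower in +/L tumours, with a median of -0.17.

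**Figure D1:**
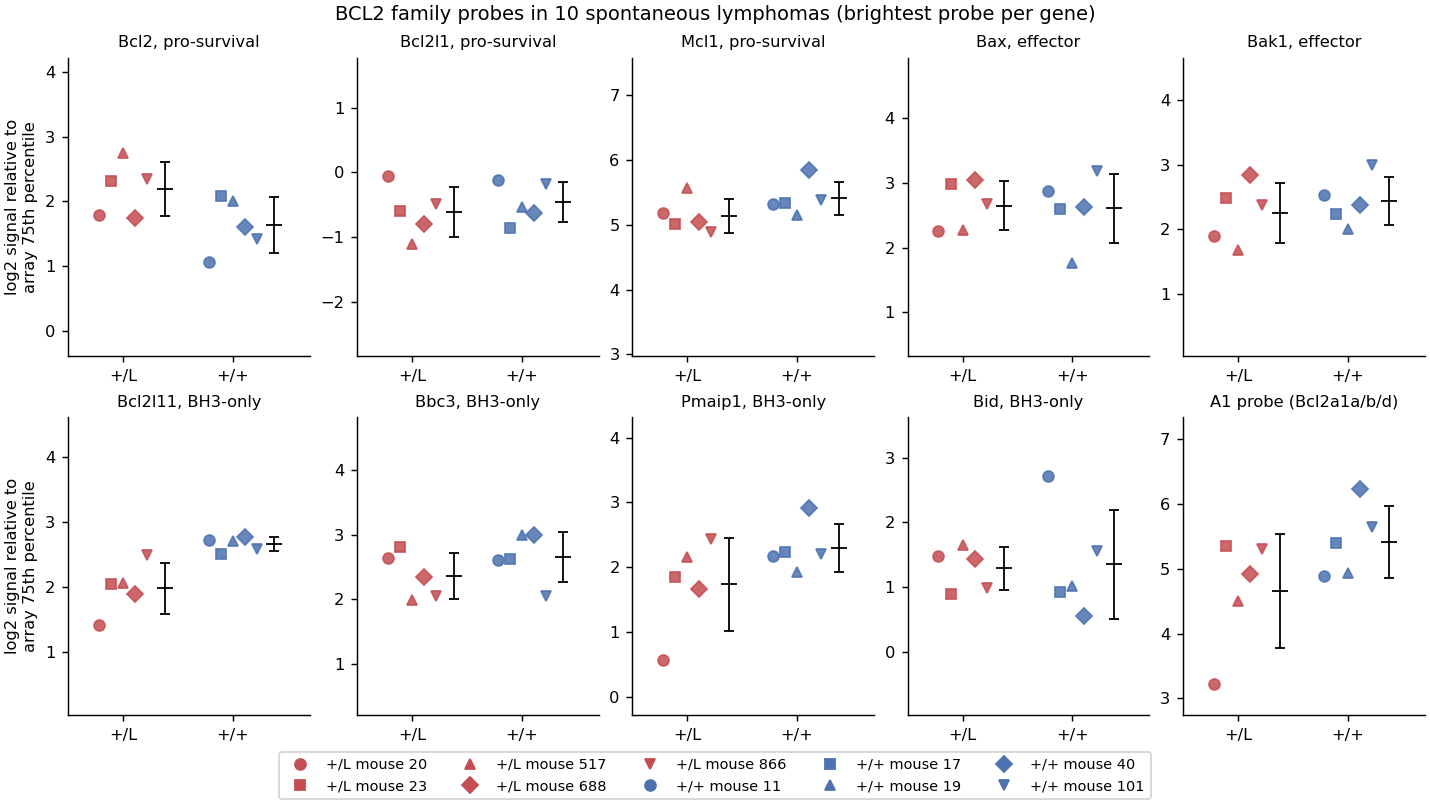
Log2 signal relative to the array's 75th percentile (y axis) of the brightest probe of each of 9 BCL2 family genes and of the A1 probe, with +/L tumours left of +/+ tumours, 1 point per tumour and the mean with its SD beside each group of 5. The panels span the same number of log2 units but start at different levels. The groups are apart for Bcl2l11 (1.41 to 2.49 in +/L and 2.51 to 2.77 in +/+ tumours) and overlap in the other panels.

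Among the pro-survival genes, Bcl2 was higher in +/L than in +/+ tumours on each of its probes, and no Bcl2 probe passed after adjustment over all kept probes. The probe shown above (A_51_P380013) read 1.79, 2.32, 2.75, 1.75 and 2.34 in +/L mice 20, 23, 517, 688 and 866. It read 1.06, 2.09, 2.01, 1.60 and 1.42 in +/+ mice 11, 17, 19, 40 and 101. The highest reading was in +/L mouse 517 and the lowest in +/+ mouse 11, and the groups overlapped. The means were 2.19 ± 0.42 in +/L tumours and 1.64 ± 0.43 in +/+ tumours (SD of 5 each), a difference of 0.55 ± 0.28 (SE, limma adjusted p = 0.648, exact two-sided permutation p = 0.0794). Within slides 1, 2 and 3 the difference was -0.08, 1.47 and 0.62. Slide 1 held +/L mice 20 and 688 and +/+ mice 17 and 40. Slide 2 held +/L mice 23 and 517 with +/+ mouse 11 alone, and slide 3 held +/L mouse 866 alone with +/+ mice 19 and 101. Every difference within slide 2 or 3 therefore rests on a single tumour of one genotype.

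The second Bcl2 probe (A_52_P534870, chr1:108434793-108434852), which starts at base 7109 of its transcript record, read 1.16, 1.77, 2.36, 2.12 and 2.20 in +/L mice 20, 23, 517, 688 and 866. It read 1.0, 1.62, 1.51, 1.51 and 0.94 in +/+ mice 11, 17, 19, 40 and 101. All +/L readings but that of mouse 20 lay above every +/+ reading. The difference was 0.60 ± 0.27 (SE, limma adjusted p = 0.616, exact permutation p = 0.0556). Without +/L mouse 20 it was 0.79 (limma adjusted p = 0.281). The third probe (A_52_P438280) differed by 0.55 ± 0.61 (limma adjusted p = 0.851). The probes of Bcl2 varied together over the 10 tumours, with Pearson r between 0.65 and 0.81 for the 3 pairs. Age moved with genotype, at 18.0 ± 4.06 months in +/L and 24.9 ± 3.47 months in +/+ mice (SD, n = 5 each). With age in the model the 3 Bcl2 differences were 0.15, 0.17 and -0.57 (limma adjusted p between 0.933 and 0.969), and the part of age in the Bcl2 result was not tested further.

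The probes of Bcl2l1 and Mcl1 did not point one way. The brightest Bcl2l1 probe (A_52_P148861) read -0.61 ± 0.38 in +/L tumours and -0.46 ± 0.31 in +/+ tumours (mean ± SD of 5 each), a difference of -0.15 ± 0.24 (SE, limma adjusted p = 0.905). It lay between -1.10 and -0.06 in +/L tumours and between -0.86 and -0.12 in +/+ tumours. Its other probes differed by 0.26 (A_52_P510877, adjusted p = 0.908) and -0.34 (A_51_P299454, adjusted p = 0.893). The last of these, at base 129 of the record, read -2.02 in +/L mouse 20 and between -5.07 and -4.41 in the other +/L tumours, against -4.02 to -3.44 in +/+ tumours. Without +/L mouse 20 its difference was -0.89 (limma adjusted p = 0.263), and without +/L mouse 23 the difference of A_52_P510877 was -0.08.

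Mcl1, a short-lived guardian protein of lymphocytes, varied least of the 9 genes on their brightest probes. Its brighter probe (A_51_P238786) read 5.14 ± 0.26 in +/L tumours and 5.41 ± 0.25 in +/+ tumours (mean ± SD of 5 each), a difference of -0.27 ± 0.20 (limma adjusted p = 0.756), with 4.89 to 5.57 as the range in +/L tumours and 5.16 to 5.84 in +/+ tumours. This difference was -0.04 with normexp and quantile normalisation, -0.01 with quantile normalisation and -0.04 in the authors' deposited table. Its other probe (A_52_P93933), 1312 bases nearer the 5′ end, differed by 0.28 ± 0.24 (limma adjusted p = 0.793), with the opposite sign. The SD of Mcl1 over the 10 tumours was 0.28, and 11.7% of all genes had a smaller SD on their brightest probe. The median SD over all genes was 0.56.

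Bcl2a1a could be followed only through the A1 probe, which the files name Bcl2a1b and for which they list transcript records of 3 near-identical genes, Bcl2a1a, Bcl2a1b and Bcl2a1d, so its signal may come from any of them. It read 3.22, 5.35, 4.50, 4.92 and 5.30 in +/L mice 20, 23, 517, 688 and 866. It read 4.89, 5.40, 4.93, 6.23 and 5.65 in +/+ mice 11, 17, 19, 40 and 101. The lowest reading was in +/L mouse 20, the highest in +/+ mouse 40, and the groups overlapped. The means were 4.66 ± 0.87 in +/L tumours and 5.42 ± 0.56 in +/+ tumours (SD of 5 each), and the difference was -0.76 ± 0.43 (limma adjusted p = 0.681, exact permutation p = 0.127). It was -1.74, 0.03 and 0.02 within slides 1, 2 and 3, -0.40 without +/L mouse 20 (limma adjusted p = 0.623) and -1.22 with age in the model (adjusted p = 0.868). It was -0.45 with normexp and quantile normalisation and -0.43 in the authors' deposited table.

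The pore formers Bax and Bak1 showed no difference between genotypes beyond the spread between tumours. Bax read 2.25, 2.99, 2.28, 3.04 and 2.67 in +/L mice 20, 23, 517, 688 and 866, and 2.88, 2.59, 1.76, 2.63 and 3.18 in +/+ mice 11, 17, 19, 40 and 101. The +/+ tumours held both the lowest and the highest reading. Bax averaged 2.65 ± 0.38 in +/L tumours and 2.60 ± 0.53 in +/+ tumours (SD of 5 each), a difference of 0.04 ± 0.29 (95% interval -0.61 to 0.69, limma adjusted p = 0.98). Its sign turned without +/L mouse 23 (-0.05), +/L mouse 688 (-0.06) or +/+ mouse 19 (-0.17). The brighter Bak1 probe (A_51_P395011) read 1.90, 2.48, 1.69, 2.84 and 2.38 in +/L mice 20, 23, 517, 688 and 866, and 2.54, 2.24, 2.01, 2.38 and 3.0 in +/+ mice 11, 17, 19, 40 and 101. The groups overlapped almost wholly. Bak1 averaged 2.26 ± 0.46 in +/L tumours and 2.43 ± 0.37 in +/+ tumours (SD of 5 each), a difference of -0.17 ± 0.27 (95% interval -0.78 to 0.43, limma adjusted p = 0.899). The Bak1 probe shown above differed by -0.34 ± 0.25 (limma adjusted p = 0.746) and by -0.52 without +/L mouse 20 (adjusted p = 0.337).

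Among the BH3-only genes, Bcl2l11 had the lowest p of all members, on its brightest probe, which was lower in +/L tumours. That probe (A_52_P158527, chr2:127988051-127988110) starts at base 4804 of its record. It read 1.41, 2.04, 2.06, 1.89 and 2.49 in +/L mice 20, 23, 517, 688 and 866. It read 2.72, 2.51, 2.71, 2.77 and 2.58 in +/+ mice 11, 17, 19, 40 and 101. Every +/L tumour lay below every +/+ tumour, with +/L mouse 866 at 2.49 next to +/+ mouse 17 at 2.51, and the +/+ readings were close together.

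The means of this Bcl2l11 probe were 1.98 ± 0.39 in +/L tumours and 2.66 ± 0.11 in +/+ tumours (SD of 5 each). The difference was -0.68 ± 0.22 (SE, 95% interval -1.16 to -0.20). The exact two-sided permutation p was 0.00794, the smallest that 252 splits of 5 against 5 allow, and the limma p adjusted over all kept probes was 0.594. Within slides 1, 2 and 3 the difference was -0.99, -0.67 and -0.16. It was -0.54 without +/L mouse 20 (limma adjusted p = 0.319) and -0.92 with age in the model (limma adjusted p = 0.863), and it stayed between -0.92 and -0.52 over 26 alternatives, with adjusted p between 0.311 and 1.0.

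The other Bcl2l11 probes did not show this difference in all 10 tumours. The probe shown above (A_51_P484880) read -0.88 in +/L mouse 20 and between -3.06 and -2.54 in the other +/L tumours, against -2.80 to -2.31 in +/+ tumours, and its difference was 0.00 ± 0.39 (limma adjusted p = 1.0). The dimmest probe (A_52_P348214), above background in 4 of 5 +/L and 3 of 5 +/+ tumours, differed by 0.39 ± 0.77 (adjusted p = 0.923). By its coordinates it lies further towards the 5′ end than A_51_P484880. It read -1.14 in +/L mouse 20 and between -5.50 and -4.00 in the other +/L tumours, against -5.35 to -3.21 in +/+ tumours. Without +/L mouse 20 the differences of these probes were -0.39 (limma adjusted p = 0.417) and -0.36 (adjusted p = 0.759). The correlation of the first 2 Bcl2l11 probes was -0.39 over 10 tumours and 0.81 over the 9 without +/L mouse 20.

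Without +/L mouse 20, 5 of 17 member probes (29.4%) had an unadjusted limma p under 0.05, beside 12.7% of all kept probes in the same fit, and 0 passed after adjustment. Of all kept probes at that p, 900 were higher and 2449 lower in +/L tumours. They were the probes A_51_P380013 and A_52_P534870 of Bcl2, higher in +/L tumours, and 1 probe each of Bcl2l1 (A_51_P299454), Bak1 (A_52_P225207) and Bcl2l11 (A_52_P158527), lower in +/L tumours. The median difference of the 17 probes was then -0.26, against -0.05 over all kept probes. In the same fit, Bcl2 differed by 0.65 (A_51_P380013) and 0.93 (A_52_P438280), and Bcl2l1 by -0.28 (A_52_P148861) and 0.04 (A_52_P510877). Mcl1 differed by -0.28 (A_51_P238786) and 0.22 (A_52_P93933), Bax by 0.14 and Bak1 by -0.09 (A_51_P395011). Bbc3 differed by -0.36 and Bid by -0.11.

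**Figure D2:**
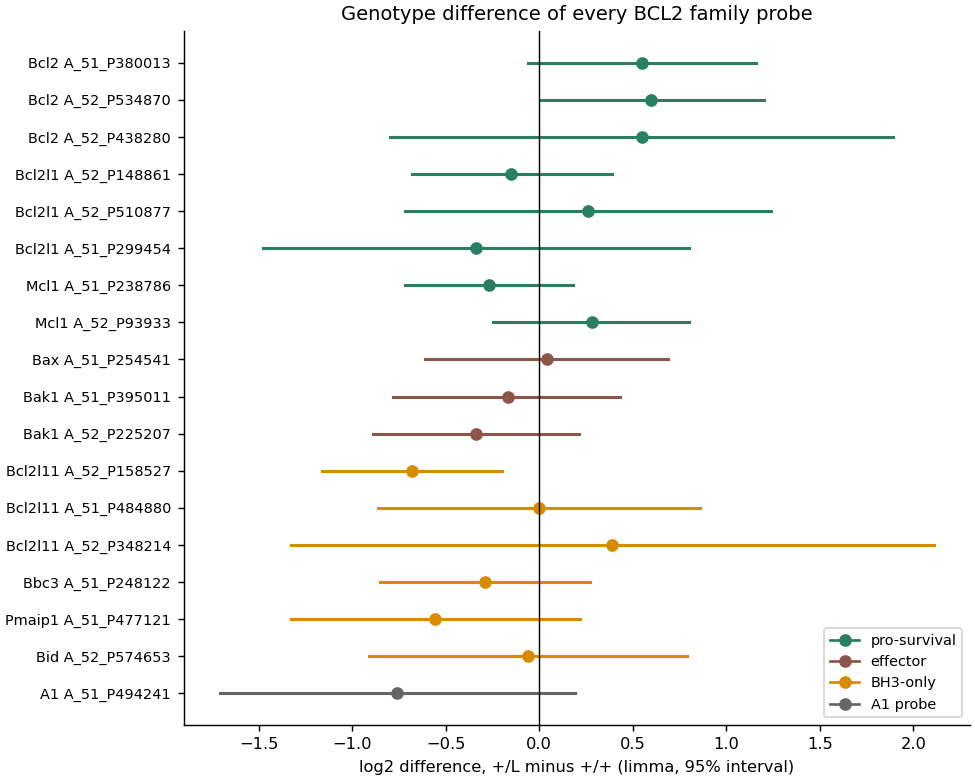
Log2 difference between genotypes (+/L minus +/+, x axis) of every BCL2 family probe, with the 95% interval from limma, coloured by role. The intervals of Bcl2 A_52_P534870 (0.01 to 1.20) and Bcl2l11 A_52_P158527 (-1.16 to -0.20) lie on one side of 0 before adjustment, and the other intervals include 0.

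The p53 targets Bbc3 and Pmaip1 were both lower in +/L tumours, within the spread. Bbc3 read 2.64, 2.80, 1.99, 2.34 and 2.05 in +/L mice 20, 23, 517, 688 and 866, and 2.61, 2.62, 3.0, 2.99 and 2.05 in +/+ mice 11, 17, 19, 40 and 101. The groups overlapped, and the highest readings were in +/+ mice 19 and 40. Bbc3 averaged 2.36 ± 0.36 in +/L tumours and 2.65 ± 0.39 in +/+ tumours (SD of 5 each), a difference of -0.29 ± 0.25 (limma adjusted p = 0.798). Pmaip1 read 0.57, 1.85, 2.16, 1.66 and 2.44 in +/L mice 20, 23, 517, 688 and 866, and 2.18, 2.24, 1.92, 2.92 and 2.20 in +/+ mice 11, 17, 19, 40 and 101. The low reading of +/L mouse 20 stood apart from the other tumours, whose groups overlapped. Pmaip1 had a single probe, which starts at base 2529 of its record, so this reading could not be compared with a probe nearer the 5′ end. The difference was -0.56 ± 0.35 (limma adjusted p = 0.705, exact permutation p = 0.151) and was -0.26 without +/L mouse 20 (adjusted p = 0.685). It was -1.46, -0.17 and 0.38 within slides 1, 2 and 3, and -0.94 with age in the model (limma adjusted p = 0.868).

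Bid, which links death receptors to mitochondria once caspase-8 has cut it, read 1.29 ± 0.33 in +/L tumours and 1.35 ± 0.84 in +/+ tumours (mean ± SD of 5 each). The difference was -0.06 ± 0.38 (limma adjusted p = 0.976), and 0.72, -1.44 and -0.30 within slides 1, 2 and 3. The wide spread in +/+ tumours came with a reading of 2.71 in mouse 11, while the +/L tumours lay between 0.90 and 1.65 and the other +/+ tumours between 0.55 and 1.56. Without +/+ mouse 11 the difference was 0.28 (limma adjusted p = 0.815), and it was 0.01 without +/L mouse 866 and 0.04 without +/L mouse 23. On brightest probes, Pmaip1 and Bid had the largest spread of the pro-death genes, with an SD of 0.61 and 0.60 over the 10 tumours. Bcl2, at 0.49, was the most variable of the 3 pro-survival genes with a probe of their own name, beside 0.80 for the A1 probe. Among dimmer probes the SD reached 1.31 for Bcl2l11, 1.05 for Bcl2 and 0.86 for Bcl2l1.

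The balance of the 2 sides was described per tumour as the mean of Bcl2, Bcl2l1 and Mcl1 minus the mean of the 6 pro-death genes, each gene taken relative to its own mean over the 10 tumours. It was 0.56, 0.04, 0.40, -0.23 and 0.05 in +/L mice 20, 23, 517, 688 and 866. It was -0.55, -0.02, 0.12, -0.13 and -0.25 in +/+ mice 11, 17, 19, 40 and 101. The tumours farthest towards survival were +/L mice 20 and 517, the one farthest towards death was +/+ mouse 11, and the groups overlapped. The mean was 0.17 ± 0.32 in +/L tumours and -0.17 ± 0.25 in +/+ tumours (SD of 5 each), a difference of 0.33, and no test was made on this score. The place of +/L mouse 20 was also described with other probes. The brightest probes of Bcl2l11, Bcl2l1, Bak1 and Mcl1 lie nearer the 3′ end. With the mean over all probes of a gene its balance was 0.26, below that of +/L mice 517 (0.45) and 23 (0.28), and the groups differed by 0.37. With the probe nearer the 5′ end for these 4 genes, an alternative added after the data were seen, the groups differed by 0.36. The balance of +/L mouse 20 was then 0.65, still the highest, beside 0.63 in +/L mouse 517. Why the mean over all probes placed it lower was not tested.

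The pro-survival side of the balance differed by 0.04 and the pro-death side by -0.29. Within the pro-death side, the 4 BH3-only genes averaged -0.20 ± 0.19 in +/L tumours, with -0.51 to -0.05 as the range, and 0.20 ± 0.20 in +/+ tumours, with 0.03 to 0.52 as the range (SD, n = 5 each). Within slides 1, 2 and 3 the BH3-only genes differed by -0.51, -0.63 and -0.14. The BH3-only ranges rest on the brightest probes, and their separation is described for those probes only. Whether the ranges stay apart with other probes was not tested. On the brightest Bcl2l11 probe +/L mouse 20 read lowest of all tumours (1.41), and on A_51_P484880 it read highest (-0.88). The 2 pore formers differed by -0.07. The balance differed by 0.24, 0.77 and 0.11 within slides 1, 2 and 3 and by 0.23 without +/L mouse 20. With the A1 probe counted on the pro-survival side, an alternative added after the data were seen, it differed by 0.13. Within slides 1, 2 and 3 that difference was -0.17, 0.72 and 0.11. The balance of +/L mouse 20 was then 0.09, below that of +/L mouse 517 (0.22) and +/+ mouse 40 (0.16).

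**Figure D3:**
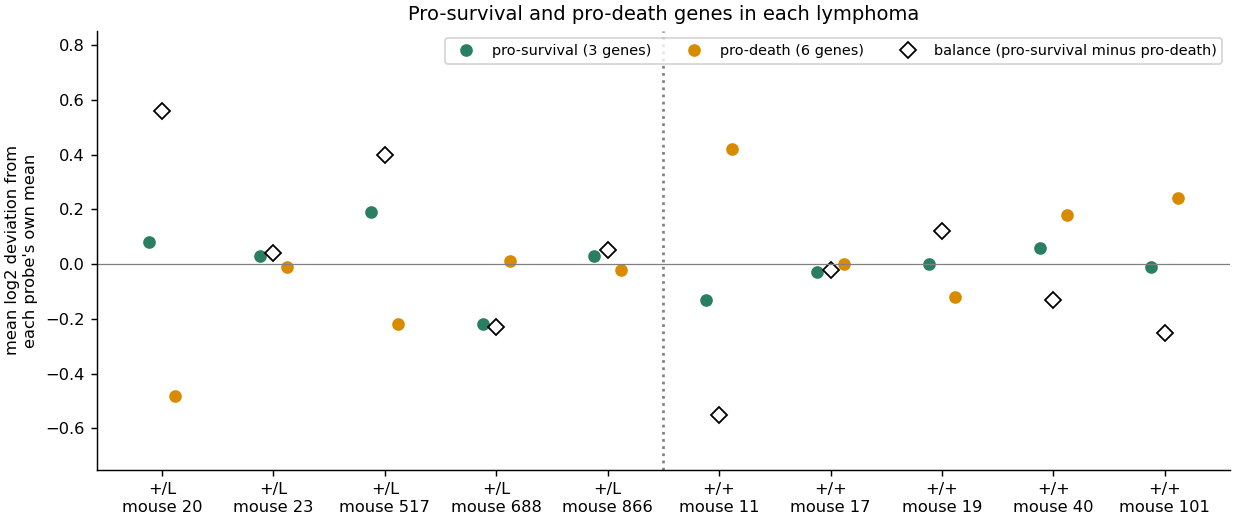
Mean log2 deviation from each probe's own mean over 10 tumours (y axis) for 3 pro-survival and 6 pro-death genes and their difference, 1 column per tumour with +/L left of the dotted line. The +/L tumours lie between -0.23 and 0.56 and the +/+ tumours between -0.55 and 0.12 on the balance.

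Marker lists of cell types differed between these tumours, and their part in the member results was not tested beyond the covariate below. A list's score is the mean log2 deviation of its genes from their own means over the 10 tumours. In +/L mouse 20 the T-cell score (7 of 7 genes measured) was lowest of all tumours at -2.05 and the plasma-cell score (6 of 6) highest at 1.83. The T-cell score lay between -2.05 and 0.77 in +/L and between -0.80 and 1.49 in +/+ tumours, and the B-cell score (7 of 7) between -1.67 and 0.61 in +/L and between -0.19 and 0.50 in +/+ tumours. The macrophage score (7 of 7) lay between -2.21 and 0.51 in +/L and between -0.20 and 1.34 in +/+ tumours. The neutrophil score (6 of 6) lay between -0.91 and 3.05 in +/L and between -3.44 and 1.52 in +/+ tumours, with the neutrophil gene S100a9 well above background on all 10 arrays. The adipocyte score (5 of 5) had the widest range of the 8 lists. It was 2.43, 1.60, -1.94, 4.46 and 1.78 in +/L mice 20, 23, 517, 688 and 866, and -3.0, -2.94, -1.48, 2.15 and -3.07 in +/+ mice 11, 17, 19, 40 and 101. It was above 0 in 4 of 5 +/L tumours and 1 of 5 +/+ tumours, and its part in the member results was not tested. The plasma-cell score lay between -1.35 and 1.83 in +/L and between -0.50 and 0.36 in +/+ tumours. The stroma and vessel score (7 of 7) lay between -0.77 and 1.09 in +/L and between -1.10 and 0.62 in +/+ tumours, and the mitosis score (8 of 8) between -0.69 and 0.35 in +/L and between -0.54 and 0.99 in +/+ tumours. With the B-cell minus T-cell score in the model, the Bcl2l11 probe A_52_P158527 differed by -0.64 (limma adjusted p = 0.589) and the Bcl2 probe A_52_P534870 by 0.65 (adjusted p = 0.602).

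Across tumours, Bax and the brighter Bak1 probe varied together, and the other Bak1 probe did not show this. Over the 36 pairs of the 9 genes (brightest probes, 10 tumours), 17 Pearson correlations were positive and 19 negative, with a median of -0.01. Bax and the brighter Bak1 probe (A_51_P395011) had r = 0.86 (permutation p = 0.00149, adjusted over 36 pairs 0.0425) and Spearman rho = 0.94 (permutation p = 0.00029, adjusted 0.0104). Both were lowest in +/L mice 20 and 517 and +/+ mouse 19 and highest in +/L mouse 688 and +/+ mouse 101. Without the tumours farthest from the median of Bax, +/+ mice 19 and 101, r was 0.94, and with genotype means removed it was 0.89. With the other Bak1 probe (A_52_P225207), r was 0.08 over 10 tumours and 0.29 without +/L mouse 20. The Bak1 probes themselves had r = 0.25 with each other, and 0.57 without +/L mouse 20. After normexp background correction and quantile normalisation r was 0.72 (adjusted permutation p = 0.207).

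Bcl2l11 and Pmaip1 also varied together, but this rested on 2 tumours. The pair had r = 0.84 (permutation p = 0.00236, adjusted 0.0425) and rho = 0.72 (permutation p = 0.0239, adjusted 0.43). Without +/L mice 20 and 688, the farthest from the median of Bcl2l11, r was 0.47, and without +/L mouse 20 alone it was 0.63. After normexp and quantile normalisation r was 0.82 (adjusted permutation p = 0.113). Of the other 34 pairs, 0 passed after adjustment. With the mean of each slide removed from both genes, an alternative added after the data were seen, r was 0.85 for Bcl2l11 and Pmaip1 and 0.93 for Bax and the brighter Bak1 probe. Against the Bcl2l11 probe A_51_P484880, Pmaip1 had r = -0.58 over 10 tumours and 0.68 without +/L mouse 20.

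**Figure D4:**
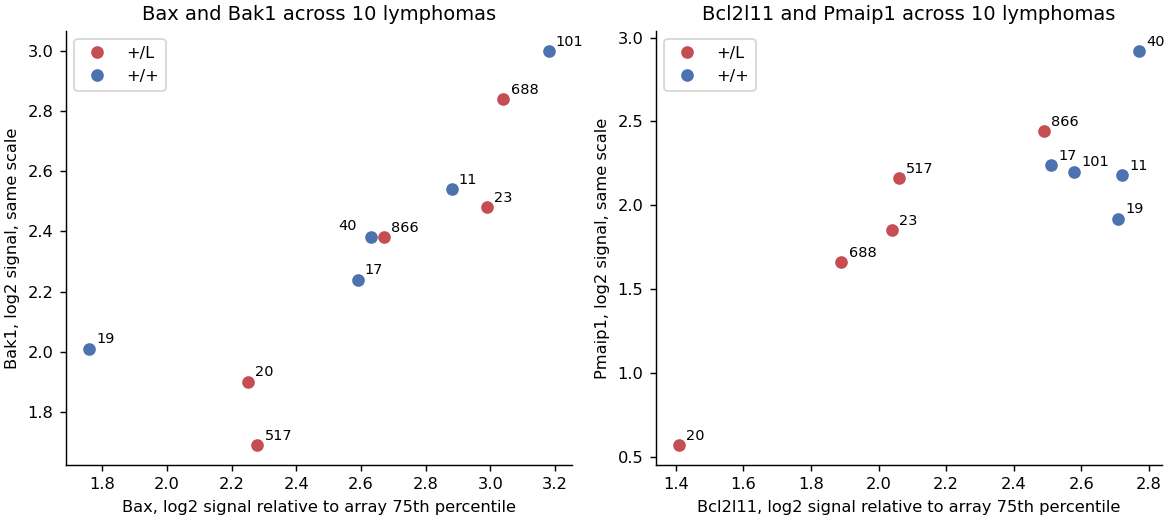
Log2 signal of the brighter Bak1 probe against Bax (left) and of Pmaip1 against the brightest Bcl2l11 probe (right) in 10 lymphomas, 1 point per tumour labelled with its mouse number. Bax and this Bak1 probe lie along a line through both genotypes (r = 0.86), and the point of +/L mouse 20 stands apart at the lower left of the other panel.

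The readings of +/L mouse 20 differed between probes of the same transcript. Its centred 5′ minus 3′ difference was 2.48 for Bcl2l11, against -0.73 to -0.12 in the other 9 tumours, and 1.53 for Bcl2l1, against -1.0 to 0.36. It was 1.0 for Bak1, against -0.76 to 0.28, and 0.48 for Mcl1, against -0.51 to 0.51. In that array 6.19% of the 2506 records had a larger difference than Bcl2l11, 18.3% than Bcl2l1, 33.5% than Bak1 and 57.1% than Mcl1. Over the 1422 records with both probes above background on all arrays, the median was 0.45 in +/L mouse 20 and between -0.21 and 0.07 in the others.

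**Figure D5:**
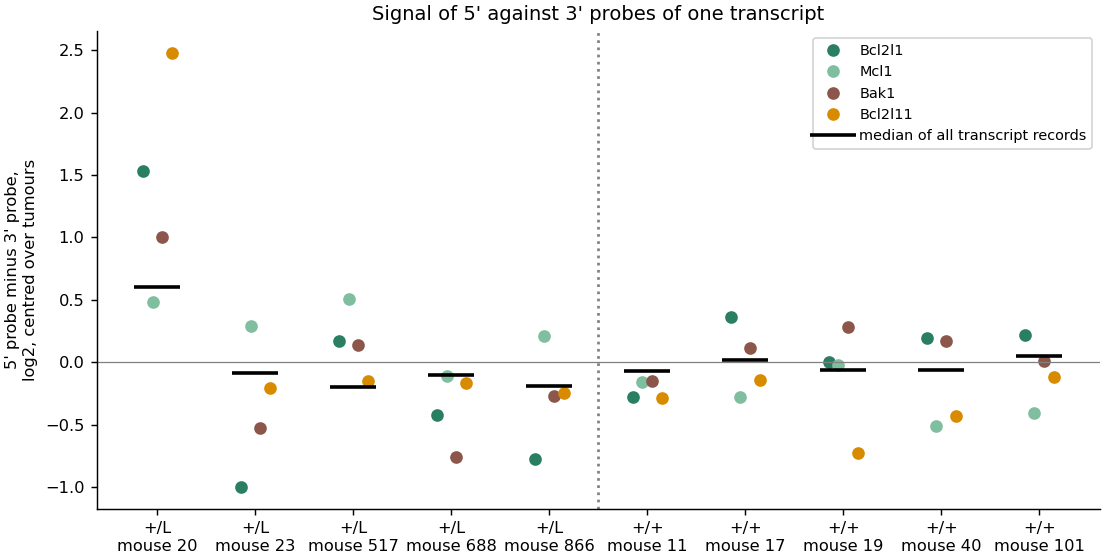
Log2 signal of the probe nearer the 5′ end minus that nearer the 3′ end, centred over the 10 tumours (y axis), for 4 BCL2 family genes, with the median of all transcript records as a black bar, 1 column per tumour and +/L left of the dotted line. In +/L mouse 20 the median of all records is 0.60 and Bcl2l11 stands at 2.48.

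Genes around the family were followed in 4 lists. Of 15 other BCL2 family genes 12 were measured, 6 higher and 6 lower in +/L tumours with a median difference of 0.03. Bcl2l10 and Hrk were above background on 0 arrays and Bcl2a1d had no probe of its own. Bmf, a BH3-only gene, read 0.84 ± 0.56 in +/L tumours and 1.42 ± 0.62 in +/+ tumours (mean ± SD of 5 each), a difference of -0.59 ± 0.36 (limma adjusted p = 0.698). Bad, another BH3-only gene, differed by 0.29 (adjusted p = 0.809) and Bnip3l, a mitophagy receptor, by 0.25 (adjusted p = 0.787).

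In the mitochondrial caspase pathway 20 of 20 genes were measured, 6 higher and 14 lower in +/L tumours with a median of -0.11. Dffb, the nuclease that cuts DNA in dying cells, differed by 0.59 ± 0.29 (limma adjusted p = 0.645), but by 0.13 with normexp and quantile normalisation and 0.10 in the authors' deposited table, and Casp6, an executioner caspase, by 0.23 (adjusted p = 0.788). Vdac2, an outer-membrane channel that binds BAK, differed by -0.51 ± 0.26 (adjusted p = 0.648). In the death receptor pathway 10 of 10 genes were measured, 2 higher and 8 lower with a median of -0.30. Casp8, the caspase that cuts BID, differed by 0.15 (adjusted p = 0.904) and Tnfsf10, the TRAIL ligand, by 0.23 (adjusted p = 0.908) and by -0.08 without +/L mouse 20. Tnfrsf10b, the TRAIL receptor, differed by -0.53 ± 0.29 (adjusted p = 0.673), with -0.35 under normexp, -0.24 in the authors' deposited table and -0.99 with quantile normalisation alone, and Ripk1, a kinase of the receptor complex, by -0.29 (adjusted p = 0.702).

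Among regulators of the family's levels 14 of 15 genes were measured (Foxo3 was above background on at most 2 arrays), 2 higher and 12 lower in +/L tumours with a median of -0.25. Over all 17775 genes 8550 were higher and 9225 lower, with a median of -0.02. The 4 lists held 0 genes past an adjusted p of 0.05, beside 0.0% of all genes, and 0, 0, 0 and 2 genes at an unadjusted p under 0.05, beside 8.46% of all genes. Those 2 were Rela and Relb, subunits of NF-κB, of which A1 is a known target. A link to the A1 readings was not tested. Rela read 3.58 ± 0.33 in +/L tumours and 4.40 ± 0.37 in +/+ tumours (mean ± SD of 5 each), a difference of -0.81 ± 0.24 (limma adjusted p = 0.594). Its groups did not overlap, at 3.14 to 3.98 in +/L tumours and 4.04 to 4.93 in +/+ tumours. Such separation was seen for 1.79% of all kept probes, and Rela is named for having the lowest p in this direction in its list. Relb differed by -0.70 ± 0.29 (limma adjusted p = 0.612), by -0.44 with normexp and quantile normalisation and by -0.43 in the authors' deposited table, and without +/L mouse 20 the 2 differences were -0.71 and -0.49. Fbxw7, a ubiquitin ligase component that targets MCL1, differed by 0.63 ± 0.34 (adjusted p = 0.665). Ddit3, a stress-induced C/EBP relative that activates Bcl2l11 transcription, differed by 0.11 (adjusted p = 0.932) and by -0.05 without +/L mouse 20.

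The start sites of the members were searched for the C/EBP recognition sequence TTGCNNAA on both strands, a place matching both being counted once. In the RefSeq promoter windows of GRCm38.p6, from 250 bases before to 50 bases after the start, 1 of 14 windows of 9 member genes (Pmaip1 was not used here) held it (7.14%), beside 10.8% of 32851 windows of 300.0 bases over all genes. The match lay in the Bid promoter, shown because it was the one found, at bases -90 to -83 from the start (chr6:120916861-120916960, minus strand, match in capitals).
Bid: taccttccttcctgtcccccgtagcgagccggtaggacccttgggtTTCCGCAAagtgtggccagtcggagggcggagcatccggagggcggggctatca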

How the data were processed

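Values are those of 10 scanner files, 1 per tumour. Per the file headers, the authors obtained each intensity with version 10.5.1.1 of Agilent Feature Extraction, and probe coordinates are in mm9. The deposited value table holds log2 values that the authors made from the same arrays, by steps not given in the sources used here, and was used as an alternative. A flag per spot, per the file headers from the same software, says whether it was well above background. The 43379 non-control spots represent 41174 probes.

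Processed signals were log2-transformed and set against the array's 75th percentile over all non-control spots. Outlier-flagged spots were then dropped and the log2 values of repeat spots averaged. A probe was kept if 3 or more of 10 arrays had it well above background (26410, for 17775 genes and unnamed transcripts), without 69 that had an outlier flag on an array. Genotypes were compared by probe with limma 3.58.1 (lmFit and eBayes) in R 4.3.3, adjusted over all kept probes, with 0.05 as the threshold. For single values an exact permutation test (two-sided, 252 splits) was added. A gene's brightest probe (highest mean) stood for it in the balance, the correlations (100000 resamples) and the gene lists. Gene names were updated through a RefSeq table: its accessions served 25097 probes, its symbols 6333 and its synonyms 1640, while 8104 probes stayed as named in the files. Exon and UTR annotation was not used here.

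The members, gene lists and tests were chosen with earlier results of these data known. Genes named beside members are, in each list, the 2 of lowest unadjusted p in each direction (1 gene is not reported here), and the genes most and least correlated with the most variable member of each side. Mice were treated as separate animals. The slide in the description label differs from that in the file header for mice 866 and 17, and header slides, numbered 1 to 3, were used. In simulated data with 26410 probes for this comparison, 0.4%, 10.8%, 61.6% and 79.6% of probes changed by 0.5, 1, 2 and 3 log2 units were recovered. Alternatives changed background correction, scaling, source, filter, probe rule, covariate, slide block, test and the arrays used.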

Additional observations from a re-analysis of the deposited data

Results flagged for a closer look

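Each member probe, the A1 probe and the balance were screened in both groups for a tumour far from the other 4 of its group (gap over range above 0.71, which chance gives in about 1 of 20 groups). Of 38 groups, 5 were picked out, 3 of them for +/L mouse 20 on a probe near the 5′ end. The Bcl2l1 probe A_51_P299454 read -2.02 in +/L mouse 20, above the rest of the +/L group, and -3.44 in +/+ mouse 101, above the rest of the +/+ group. The Bak1 probe A_52_P225207 read -0.84 in +/L mouse 20, above the other +/L tumours. The Bcl2l11 probe A_51_P484880 read -0.88 in +/L mouse 20, above the other +/L tumours, and -2.80 in +/+ mouse 19, below the other +/+ tumours.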

How the results depend on the processing

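Differences of the 17 member probes and the A1 probe were recomputed under 26 alternatives, giving 458 values, of which 0 passed an adjusted p of 0.05. For the 17 probes with a difference other than 0.00, 411 of 433 values did not turn sign and 22 turned. The Bcl2l11 probe A_51_P484880, at 0.00, lay between -0.39 and 0.28. The Bcl2 probes A_51_P380013 (0.15 to 0.88) and A_52_P534870 (0.17 to 0.79) and the Bcl2l11 probe A_52_P158527 (-0.92 to -0.52) kept their direction under each. The turned values below were all within the spread between tumours, and the cause of each was not tested.

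With age as a covariate the differences were -0.57 for Bcl2 A_52_P438280, 0.07 for Bcl2l1 A_52_P148861, 0.24 for Bcl2l1 A_51_P299454, 0.57 for Bid, 0.13 for Bmf, -0.13 for Casp6, -0.42 for Casp8 and -0.01 for Tnfsf10. With normexp and quantile normalisation they were -0.02 for Bcl2l1 A_52_P510877 and 0.02 for Bid. Bid was at 0.02 with quantile normalisation and at 0.01 in the authors' deposited table, and Bax at -0.10 with the description-label slide as a block. Without mice 20 and 11 the values were -0.40 for Bcl2l11 A_52_P348214, 0.23 for Bid, -0.27 for Tnfsf10 and -0.05 for Ddit3. In female-labelled mice they were 0.14 for Bak1 A_51_P395011, -0.68 for Bcl2l11 A_52_P348214, 0.41 for Bid, -0.34 for Tnfsf10 and -0.13 for Ddit3. Leaving out 1 mouse at a time gave -0.08 to 0.50 for Bcl2l1 A_52_P510877, -0.17 to 0.18 for Bax, -0.36 to 0.73 for Bcl2l11 A_52_P348214, -0.26 to 0.28 for Bid, -0.08 to 0.44 for Tnfsf10 and -0.05 to 0.25 for Ddit3.

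The count of member probes at an unadjusted p under 0.05, 2 as reported, was 1 with no filter, 1 probe per gene, age, the header slide as a block, without mice 866 and 17, or by the exact permutation test. It was 4 without mice 20 and 11, and between 1 and 5 when 1 mouse was left out, 5 being without +/L mouse 20 and 1 without +/L mouse 23, 517 or 866 or +/+ mouse 11, 19, 40 or 101. Of the 2 correlated pairs, 0 passed with normexp and quantile normalisation, at 0.72 for Bax and Bak1 and 0.82 for Bcl2l11 and Pmaip1. The balance differed by 0.23 to 0.43 when 1 mouse was left out. No paired analysis was possible because the mouse numbers are not shared between genotypes. Of the 25 named probes with a difference of at least 0.2 in size, 11 were smaller by over 1.5 times with normexp and quantile normalisation and the same number in the authors' deposited table. Under normexp and in that table they were -0.02 and 0.00 for Bcl2l1 A_52_P510877, -0.09 and -0.05 for Bcl2l1 A_51_P299454, 0.14 and 0.11 for Bcl2l11 A_52_P348214, -0.18 and -0.19 for Bbc3, 0.09 and 0.06 for Bad and 0.09 for Tnfsf10 in both, besides Mcl1, A1, Dffb, Tnfrsf10b and Relb above. Scaling moved the median difference of all kept probes to between -0.0764 and 0.0441. Signal over background limits the dim probes, such as Bcl2l11 A_52_P348214.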

Other observations

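The genes whose signal over the 10 tumours was most like that of the most variable pro-survival and pro-death member, taken from the 9 genes with a probe of their own name (the A1 probe varied more), among 14789 genes with a symbol, are given as descriptions, without a test. Variation was compared on the brightest probe of each gene. The points share the arrays and their scaling. For Bcl2 they were Atxn7 (Pearson r = 0.964), a component of the SAGA chromatin complex, Rmc1 (0.943) and Izumo4 (0.913), and the most opposed were Tfg (-0.957), Ppp2ca (-0.951), the catalytic subunit of protein phosphatase 2A, and Coq6 (-0.948), an enzyme of coenzyme Q synthesis. For Pmaip1 they were Nfe2l2 (0.965), the oxidative-stress transcription factor NRF2, Dpp7 (0.959) and Poglut1 (0.942), and the most opposed were Cep97 (-0.964), Xpo4 (-0.963) and Kdm8 (-0.936).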
